A study of Caenorhabditis elegans with 5 samples.

Results

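The 10 maternal RNA regulators described here are *C. elegans* genes whose protein products bind messenger RNA in the oocyte and early embryo. They were found as the probe sets whose platform gene symbol is *oma-1*, *oma-2*, *mex-1*, *mex-3*, *mex-5*, *mex-6*, *pos-1*, *pie-1*, *spn-4* or *cgh-1*, which gave 18 probe sets of 22548 on the array and 10 of 17138 named genes. Each of 8 genes had 2 probe sets, and *oma-1* and *pie-1* had 1. The rule takes them by gene name and uses no signal value, although the 10 genes were chosen with earlier results of these data known.

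RNA came from whole wild-type Bristol N2 worms of mixed stage, cultured for 10 days at 20 °C in the liquid medium CeMM, with 100000 worms in each of 5 groups and 1 Affymetrix array for each. The space flight group grew in microgravity, the clinorotation group under a randomised gravity vector, and the hypergravity group under a raised gravity, labelled 3 G in one field and 10 G in another. The ground controls were cultures at 1 G, one from Tsukuba space center and one from the mission's operation site. Each condition had no replicate of its own, and the 2 controls, which came from different sites, were the only replicated group. Whole mixed-stage animals limit the model: fewer oocytes or embryos and less of a given RNA in each cannot be told apart.

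A mature *C. elegans* oocyte and the zygote made from it are almost silent in transcription, so early development runs on RNA stored by the mother. Translation and stability of that RNA are set by RNA-binding proteins, many with CCCH zinc fingers, which are spread unequally along the axis of the zygote and are later degraded in the somatic blastomeres. Their messages are made in the hermaphrodite germ line and are abundant in oocytes and early embryos.

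Signals below are in arbitrary units and were quantile scaled, because the 5 deposited arrays differed in brightness, with trimmed means from 138.9 to 217.4. A floor of 25.12, the 40th percentile of the scaled signals, replaced any lower value. All 18 probe sets were above it, with signals from 163 to 2665. The platform gives 9 of the 18 a suffix, s or x, for probe sets that may bind several transcripts, so that related genes could contribute to those signals.

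Every one of the 10 genes had a higher signal in space flight and in hypergravity than in both ground controls, on the probe set with the higher mean of each gene. In clinorotation 7 were above both controls, *oma-1* was below both and *mex-5* and *mex-6* lay between them. The differences were modest: the median from the control mean was 0.35 (log2) in space flight, 0.18 in clinorotation and 0.56 in hypergravity, or 1.28-fold, 1.13-fold and 1.47-fold, and no gene was 2-fold above both controls, as were 0.157%, 0.105% and 0.253% of all genes in those conditions. Over the 11460 genes above the floor, 35.0% were above both controls and 26.3% below both in space flight, 27.1% and 24.8% in clinorotation, and 32.3% and 29.2% in hypergravity, and the medians were 0.008, 0.0 and -0.003 (log2). Those above both controls in space flight and in hypergravity together were 16.9% of all genes, and those above both in all 3 conditions, as 7 of the 10 were, 8.35%.

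**Figure D1:**
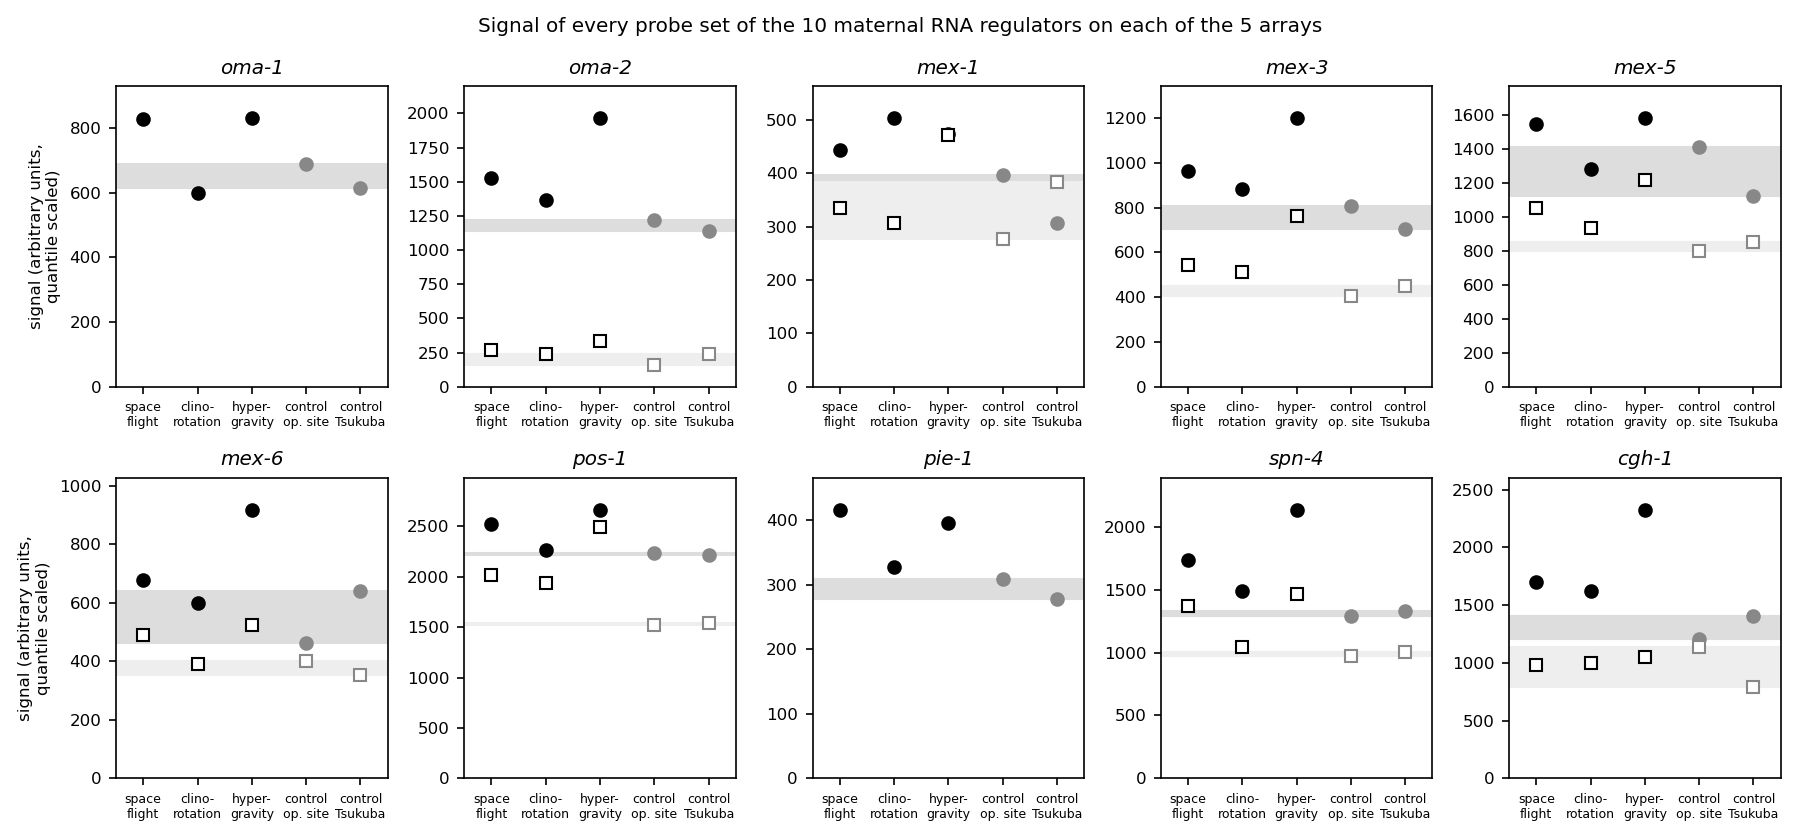
Signal (arbitrary units, linear axis from 0) of the 18 probe sets on the 5 arrays, 1 panel per gene; circles are the probe set with the higher mean, open squares the other, grey symbols the 2 ground controls and grey bands the range between them. On these scaled signals hypergravity is the highest array on 15 of 18 probe sets, against 10 of 18 in the deposited values.

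OMA-1 and OMA-2 are near-redundant CCCH proteins that oocytes need in order to mature and that repress stored RNAs until the first division. The single probe set of *oma-1* (189867_s_at) read 826 in space flight, 599 in clinorotation and 829 in hypergravity, against 687 at the operation site and 614 at Tsukuba. Space flight and hypergravity were almost equal and above both controls, and clinorotation was the lowest of the arrays. The first probe set of *oma-2* (189988_s_at) read 1524 in space flight, 1370.2 in clinorotation and 1965 in hypergravity, against 1220.1 at the operation site and 1140.4 at Tsukuba. Its second probe set (173110_at) read 269.7 in space flight, 240.0 in clinorotation and 337 in hypergravity, against 163 and 241 in those controls. Hypergravity was highest on both probe sets, 0.69 and 0.48 (log2) above the nearer control, while on the second the clinorotation value was just under the Tsukuba control. Relative to the control mean, *oma-2* in hypergravity was 0.74 ± 0.10 and 0.77 ± 0.38 higher on the 2 probe sets (log2, SE from limma), whereas *oma-1* was 0.35 ± 0.14 higher. In clinorotation *oma-1* was 0.12 lower, a direction that turned without scaling, where it was 0.22 higher.

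MEX-5 and MEX-6 are paralogous CCCH proteins that gather at the anterior of the zygote and drive other maternal factors to the posterior. The first probe set of *mex-5* (194215_x_at) read 1547 in space flight, 1284 in clinorotation and 1581 in hypergravity, against 1409 at the operation site and 1124 at Tsukuba. Its second (193943_at) read 1053 in space flight, 934 in clinorotation and 1216 in hypergravity, against 799 and 851. Space flight and hypergravity lay above both controls on each, by 0.14 and 0.17 (log2) from the nearer one on the first and by 0.31 and 0.52 on the second. The controls differed by 0.33 on the first and by -0.09 on the second, and hypergravity was 0.33 and 0.56 above their mean. For *mex-6*, the first probe set (192002_at) read 678 in space flight, 599.8 in clinorotation and 918 in hypergravity, against 462 at the operation site and 641 at Tsukuba. The second (175381_at) read 490.4 in space flight, 390.4 in clinorotation and 525 in hypergravity, against 401 and 352. Clinorotation lay between the controls on both *mex-6* probe sets, and hypergravity was again the highest array. The operation-site control was the lower of the controls on the first *mex-6* probe set and the higher on the second.

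MEX-1, POS-1 and PIE-1 are CCCH proteins of the posterior and of the germ line blastomeres. MEX-1 helps keep the transcription factor SKN-1 and P granules in their lineage, POS-1 controls translation of maternal RNAs such as *glp-1*, and PIE-1 keeps transcription off in the germ line blastomeres. The first probe set of *mex-1* (171952_s_at) read 444 in space flight, 503 in clinorotation and 474 in hypergravity, against 396 at the operation site and 306 at Tsukuba. This was the only first probe set of the 10 genes on which clinorotation was the highest array. The second *mex-1* probe set (194039_s_at), which the platform lists under 2 gene identifiers with the same symbol, read 335 in space flight, 308 in clinorotation and 472 in hypergravity, against 276 and 384. There only hypergravity was outside the controls, so that the *mex-1* value for clinorotation, 0.53 (log2) from the control mean on one probe set and -0.08 on the other, depended on the probe set.

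The *pos-1* controls were the closest of all 18 probe sets. Its first (175810_at) read 2519 in space flight, 2263 in clinorotation and 2665 in hypergravity, against 2239.8 at the operation site and 2219 at Tsukuba. The second (192079_s_at) read 2015 in space flight, 1935 in clinorotation and 2495 in hypergravity, against 1517 and 1543. All 3 conditions were above both controls on each, although the clinorotation excess on the first was 0.02 (log2) and turned to -0.01 from the control mean when arrays were scaled to a common trimmed mean. *pos-1* was 0.18 and 0.26 above the control mean in space flight and hypergravity on the first probe set, and 0.40 and 0.71 on the second. The single probe set of *pie-1* (175605_s_at) read 416 in space flight, 327 in clinorotation and 395 in hypergravity, against 309 at the operation site and 277 at Tsukuba. *pie-1* was the 1 gene whose space flight value exceeded that of hypergravity, and its space flight difference, 0.51 ± 0.16 (log2, SE), was the largest of the 18 probe sets in that condition.

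MEX-3, a KH-domain protein, represses the homeobox message *pal-1* in the anterior of the embryo and in the germ line. The first *mex-3* probe set (175599_s_at) read 965 in space flight, 882 in clinorotation and 1199 in hypergravity, against 809 at the operation site and 702 at Tsukuba. The second (189002_s_at) read 545 in space flight, 515 in clinorotation and 764 in hypergravity, against 405 and 451. Both probe sets put all 3 conditions above both controls in the same order, hypergravity highest and clinorotation nearest to the controls. The hypergravity difference of the second, 0.84 (log2), equalled that of *cgh-1* as the largest of any probe set.

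SPN-4, a protein with an RNA recognition motif, regulates maternal RNAs in the early blastomeres together with POS-1. The first *spn-4* probe set (192036_at) read 1736 in space flight, 1493 in clinorotation and 2136 in hypergravity, against 1288 at the operation site and 1332 at Tsukuba. The second (174082_at) read 1373 in space flight, 1043 in clinorotation and 1464 in hypergravity, against 973 and 1003. The controls differed by 0.05 and 0.04 (log2), and all 3 conditions were above both on each probe set. *spn-4* in space flight was 0.41 ± 0.09 and 0.47 ± 0.09 above the control mean, and in hypergravity 0.71 ± 0.09 and 0.57 ± 0.09.

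CGH-1 is a DEAD-box RNA helicase of the DDX6 family that protects stored maternal RNAs in germ line granules. The first *cgh-1* probe set (187802_at) read 1699 in space flight, 1620.2 in clinorotation and 2327 in hypergravity, against 1206 at the operation site and 1406 at Tsukuba. The second (174828_at) read 983 in space flight, 996 in clinorotation and 1049.8 in hypergravity, against 1139 and 787. The first put every condition above both controls, with hypergravity 1.79-fold over their mean, whereas on the second every condition lay between the controls. Its 2 probe sets differed by 0.69 (log2) in the hypergravity difference, the widest disagreement among the 8 genes with a pair.

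**Figure D2:**
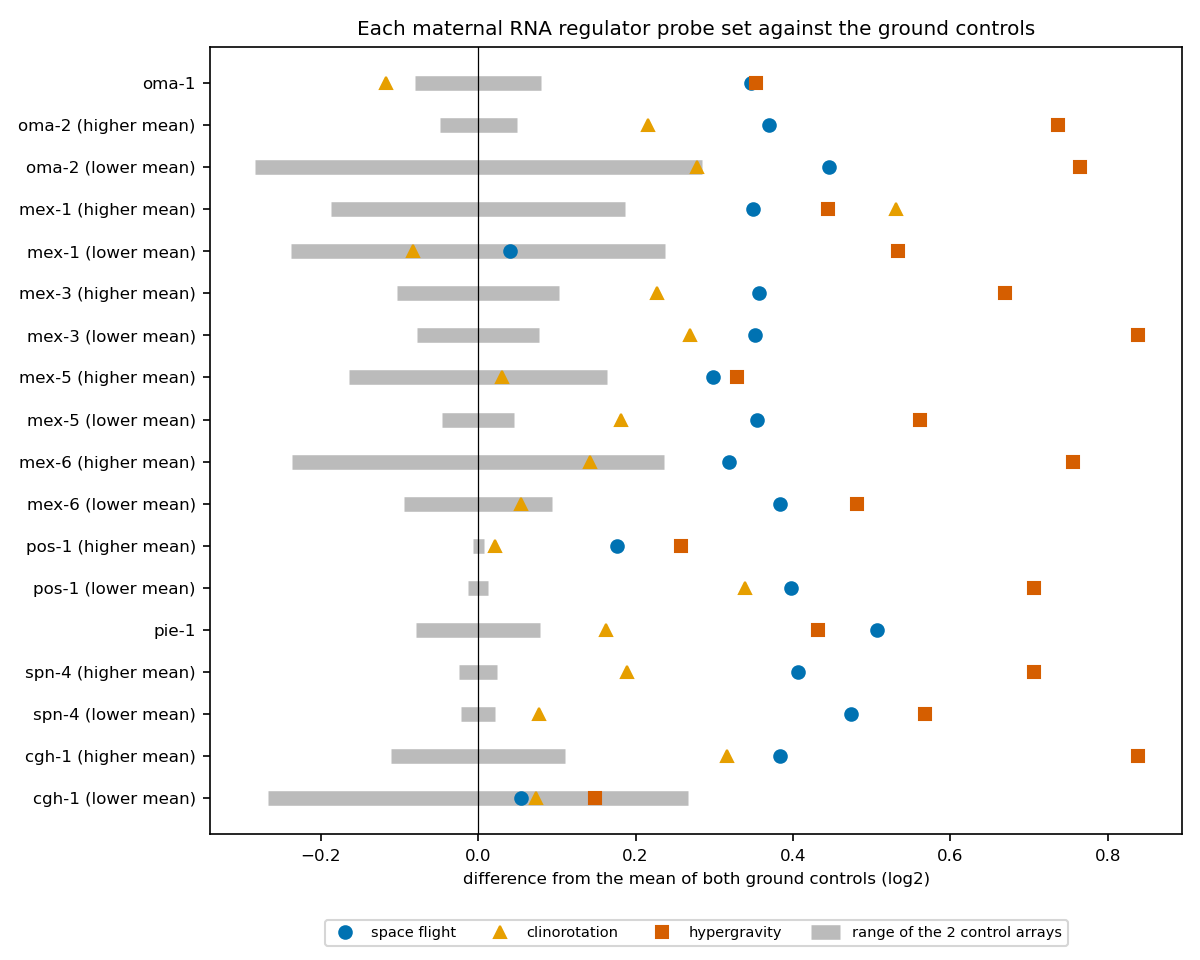
Difference of each condition from the mean of both ground controls (log2, horizontal axis) for the 18 probe sets; symbols are single arrays and grey bars span the 2 controls. Hypergravity lies to the right of the control range on 17 probe sets, space flight on 16 and clinorotation on 11.

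Over the probe sets, 16 of 18 were above both controls in space flight and 0 below, 11 above and 1 below in clinorotation, and 17 above and 0 below in hypergravity. The same places were taken by 34.9% above and 26.1% below in space flight, 28.2% and 23.6% in clinorotation, and 34.2% and 27.5% in hypergravity among the 15115 probe sets above the floor. The 2 probe sets in space flight and the 1 in hypergravity that were not outside were the second ones of *cgh-1* and, in space flight, of *mex-1*.

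The limma fit across those 15115 probe sets, with the controls as 1 group of 2, called none of the 18 in any condition at an adjusted p under 0.05. It called 0.0% of all probe sets in each condition. Adjusted p for the 18 ran from 0.909 to 1.0 in space flight, was 1.0 in clinorotation and ran from 0.838 to 0.928 in hypergravity. At an unadjusted p under 0.05, 8 of the 18 passed in hypergravity, all higher, where 3.74% of all probe sets passed as higher. These were the first probe sets of *oma-2*, *cgh-1* and *mex-3*, the second of *mex-3*, *mex-5* and *pos-1*, and both of *spn-4*. In space flight 3 of 18 passed, the second probe set of *pos-1* and both of *spn-4*, beside 2.21% of all, and in clinorotation 0 of 18, beside 1.86%. The fit has 1 residual degree of freedom, between control cultures from different sites, and assumes that each lone array varies as they do. It also draws the spread of each probe set towards that of other probe sets of similar signal. On the first *pos-1* probe set the control SD was 0.01 (log2) and the SE from limma 0.084. The fit thus measures only the spread between these control cultures, shared over probe sets.

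The 3 conditions fell in the order hypergravity, space flight, clinorotation, high to low, for 8 of 10 genes after scaling and for 5 of 10 in the deposited values. The share of all genes in that order was not counted, so how common it is cannot be read here. After scaling, hypergravity was the highest array for 8 of 10 genes, where it was highest for 21.3% of all genes, and on 15 of 18 probe sets, beside 22.7%; the exceptions among the genes were *mex-1* and *pie-1*. In the deposited values it was the highest for 5 of 10 genes and on 10 of 18 probe sets, beside 20.3% and 22.2% of all. Compared directly, hypergravity exceeded space flight for 9 of 10 genes by a median of 0.20 (log2), beside 44.8% of all genes, and clinorotation for 9 of 10 by 0.46, beside 47.2%. Space flight exceeded clinorotation for 9 of 10, by 0.17, beside 51.9%. These are single arrays with no test, and the count for the first of the 3 depended on the scaling. In the deposited values 5 of 10 genes were higher in hypergravity than in space flight, beside 29.6% of all genes. The median difference of the 10 was then 0.08, where the median of all genes was -0.21.

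Between the controls, the operation-site signal was above the Tsukuba signal for 7 of 10 genes, with a median of 0.13 (log2), beside 50.9% of all genes. Over probe sets it was higher on 9 of 18, beside 48.5% of all, with a median of -0.01. The difference ran from -0.57 on the second *oma-2* probe set to 0.53 on the second *cgh-1* probe set, about the size of the median hypergravity difference from the control mean, 0.56. The summed signal of the 10 genes was 12355 in space flight, 10942.5 in clinorotation and 14489 in hypergravity, against 10026 at the operation site and 9760.5 at Tsukuba.

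**Figure D3:**
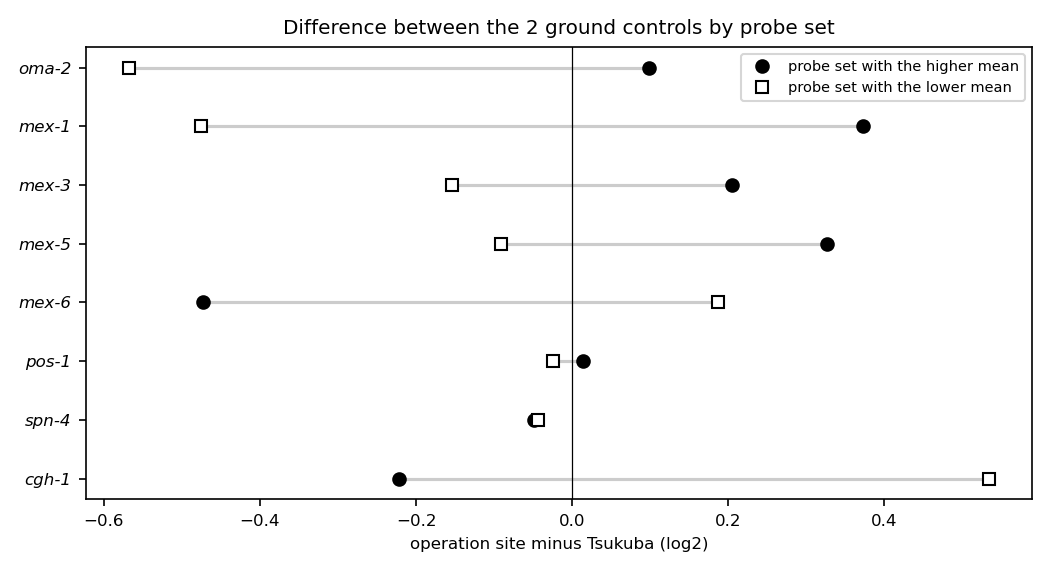
Operation-site minus Tsukuba difference (log2, horizontal axis) for the 8 genes with 2 probe sets; filled circles are the probe set with the higher mean and open squares the other. For 7 of the 8 genes the 2 probe sets lie on opposite sides of 0.

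Genes that act with these regulators were read from lists. Of 20 measured germ line translational regulators, such as the PUF-family repressors and the GLD proteins, 17 were above both controls and 0 below in space flight (median 0.41, log2), 5 above and 1 below in clinorotation (0.04), and 14 above and 1 below in hypergravity (0.38). *puf-3*, an oocyte PUF protein gene, read 1149.6 in space flight, 976 in clinorotation and 1426 in hypergravity, against 925 at the operation site and 888 at Tsukuba. *puf-5*, which acts in growing oocytes, read 2088 in space flight, 1749 in clinorotation and 2346 in hypergravity, against 1693 and 1373. *rnp-8*, a partner of the poly(A) polymerase GLD-2, read 287 in space flight, 163 in clinorotation and 323 in hypergravity, against 208 and 174. Space flight and hypergravity were above both controls for all 3 of these genes, and clinorotation was above both for *puf-3* and *puf-5* and below both for *rnp-8*. The list differed between the controls, by a median of 0.37 higher at the operation site, so that its median was 0.24 in space flight, -0.16 in clinorotation and 0.12 in hypergravity against that control, and 0.66, 0.16 and 0.62 against Tsukuba.

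Of 12 genes for partners of CGH-1 in RNA granules, 10 were above both controls and 1 below in space flight (median 0.23), 5 above and 5 below in clinorotation (-0.03), and 9 above and 0 below in hypergravity (0.11). *cey-2*, a germ line cold-shock domain protein gene, read 3261 in space flight, 2403 in clinorotation and 3657 in hypergravity, against 2307 at the operation site and 2257 at Tsukuba. *patr-1*, a decapping activator gene, read 1385 in space flight, 1018 in clinorotation and 1169 in hypergravity, against 1103 and 1071. As for *oma-2* and *spn-4*, hypergravity was highest and space flight next for *cey-2*, while for *patr-1* space flight was highest and clinorotation below both controls.

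Kinases, polarity proteins and degradation factors that place, activate or remove the regulators had 11 of 15 above both controls and 3 below in space flight, with *gsk-3* at the floor (median 0.17), 5 and 3 in clinorotation (0.01), and 10 and 3 in hypergravity (0.22). *plk-1*, the polo-like kinase that binds MEX-5, read 819.8 in space flight, 739 in clinorotation and 965 in hypergravity, against 700.3 at the operation site and 682 at Tsukuba. *egg-3*, which tethers the kinase MBK-2 in the oocyte cortex, read 568 in space flight, 437 in clinorotation and 607 in hypergravity, against 441 and 395. *mbk-2* itself, which marks OMA-1 and OMA-2 for removal, read 664 in space flight, 795 in clinorotation and 749 in hypergravity, against 913 and 774. Space flight and hypergravity were below both controls for *mbk-2*. Hypergravity was highest for *plk-1* and *egg-3*, and in clinorotation *plk-1* was above both controls and *egg-3* between them.

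Maternal messages that these proteins bind or regulate had 5 of 7 above both controls and 1 below in space flight (median 0.21), 3 and 2 in clinorotation (0.09), and 6 and 1 in hypergravity (0.43). *mom-2*, the Wnt ligand of the early embryo, read 368 in space flight, 356 in clinorotation and 513 in hypergravity, against 307 at the operation site and 329 at Tsukuba. *zif-1*, the adaptor through which PIE-1, POS-1 and MEX-1 are degraded in somatic blastomeres, read 259 in space flight, 229 in clinorotation and 321 in hypergravity, against 225 and 212. *pal-1*, the target of MEX-3, read 551 in space flight, 448 in clinorotation and 557 in hypergravity, against 432 and 397. All 3 conditions were above both controls for these messages. *skn-1* ran the other way, at 465 in space flight, 650.2 in clinorotation and 440.5 in hypergravity, against 548 and 679.9. It was below both controls in space flight and hypergravity and between them in clinorotation. *glp-1* read 489.5 in space flight, 316 in clinorotation and 479 in hypergravity, against 462 and 405. The 2 messages below both controls in clinorotation were *glp-1* and *apx-1*. In clinorotation the direction of several list medians turned between the controls. Against the operation site and Tsukuba they were -0.16 and 0.16 for the translational regulators, and -0.03 and 0.004 for the CGH-1 partners. They were -0.05 and 0.08 for the kinases and polarity factors, and 0.05 and -0.04 for the target messages. Other CCCH finger genes (0.15 and -0.045) and zygotic genes of the embryo (-0.05 and 0.11) turned too. So did the oocyte and eggshell markers (-0.05 and 0.10) and general germ line markers (-0.24 and 0.11). The small list of other CCCH finger genes, with 4 of 6 above the floor, had 1 above both controls and 2 below in space flight and in hypergravity, and 0 outside in clinorotation. The 1 above both in hypergravity was *ccch-5*, at 30.5 there and at the floor of 25.12 on every other array. *moe-3*, an *oma*-like gene, read 63.99 in space flight, 158 in clinorotation and 142 in hypergravity, against 71.1 at the operation site and 168.5 at Tsukuba.

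Markers of cell types were read beside these values. All 9 oocyte and eggshell markers were above the floor, among them the yolk receptor gene *rme-2* at 1489.5 in space flight, 1251 in clinorotation and 1500.0 in hypergravity, against 1193 at the operation site and 1090.0 at Tsukuba. In space flight 9 of the 9 were above both controls (median 0.34), in clinorotation 2, with 1 below (0.02), and in hypergravity 6 (0.28), and their summed signal was 28630.7, 22695 and 26484 on those arrays, against 24972 and 20577 in the controls. Against the operation site and Tsukuba, these medians were 0.20 and 0.47 in space flight, -0.05 and 0.10 in clinorotation, and 0.23 and 0.35 in hypergravity. Of 12 general germ line markers 9 were above both in space flight (0.39), 1 in clinorotation (-0.02) and 5 in hypergravity, with 1 below (0.12), with summed signals of 6233, 4408 and 5021, against 5659 and 4045. The controls differed by 0.46 on this list, and its median was 0.15 in space flight, -0.24 in clinorotation and -0.09 in hypergravity against the operation site, and 0.51, 0.11 and 0.27 against Tsukuba, so that the direction in clinorotation and hypergravity turned with the control. Sperm markers, 11 of 15 above the floor, summed to 9327 in space flight, 1973 in clinorotation and 2756 in hypergravity, against 9194 at the operation site and 2486 at Tsukuba, so sperm and maternal regulator messages did not follow the same order of arrays. Of those 11 sperm genes, 6 were above both controls in space flight, while 5 were below both in clinorotation and 3 in hypergravity. The controls differed by a median of 1.37 on these 11 genes, so that the space flight median was 0.005 against the operation site and 1.28 against Tsukuba, and the clinorotation and hypergravity medians were -1.37 and 0.0. The sperm genes *spe-8*, *spe-9*, *spe-12* and *spe-38* were at the floor on every array. *fer-1*, *spe-10*, *spe-11* and *spe-26* were at the floor in clinorotation, hypergravity and Tsukuba, so the floor limits the sperm medians on those arrays. Well above the floor, *msp-31* read 3790.6 in space flight, 706.5 in clinorotation and 1042.2 in hypergravity, against 3707.7 at the operation site and 837.4 at Tsukuba. The highest signals of the list were those of *msp-31*, *msp-77* and *msp-3*, which therefore weigh most in its sum. Their probe sets and those of *gsp-3* and *gsp-4* carry the suffix x, so related genes could contribute to these signals. Of 10 zygotic genes of the embryo, 7 were at the floor on every array, and the list summed to 344 in space flight, 401 in clinorotation and 396 in hypergravity, against 407 and 395.

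Markers of the body were lower or mixed. Body wall muscle markers were below both controls for 8 of 8 in space flight (median -0.39), 5 in clinorotation (-0.13) and 5 in hypergravity (-0.15), and their summed signal was 15040.0, 17852 and 17207, against 19214 at the operation site and 19726 at Tsukuba. Hypodermis markers had 5 of 7 below both in space flight, 3 in clinorotation and 3 in hypergravity, with 1 above both in hypergravity. They summed to 12525, 13113 and 12932, against 16693 and 13922. Against the operation site and Tsukuba, the hypodermis medians were -0.47 and -0.17 in space flight, -0.42 and -0.13 in clinorotation, and -0.46 and 0.0 in hypergravity. Neuron markers had 5, 3 and 7 of 9 below both and 0, 1 and 1 above both, with *unc-31* at the floor. They summed to 6899, 8326 and 6197, against 8455 and 8128. Intestine markers had 1 of 8 above both and 2 below in space flight, 0 and 5 in clinorotation, and 4 and 1 in hypergravity. Their 3 vitellogenin genes, which encode yolk proteins, summed to 9652.5, 8318 and 14187, against 9664 and 8172, and the other 5 to 2960.2, 3077 and 3314, against 3227 and 3579. The part of tissue proportions in the higher maternal regulator signals was not tested.

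**Figure D4:**
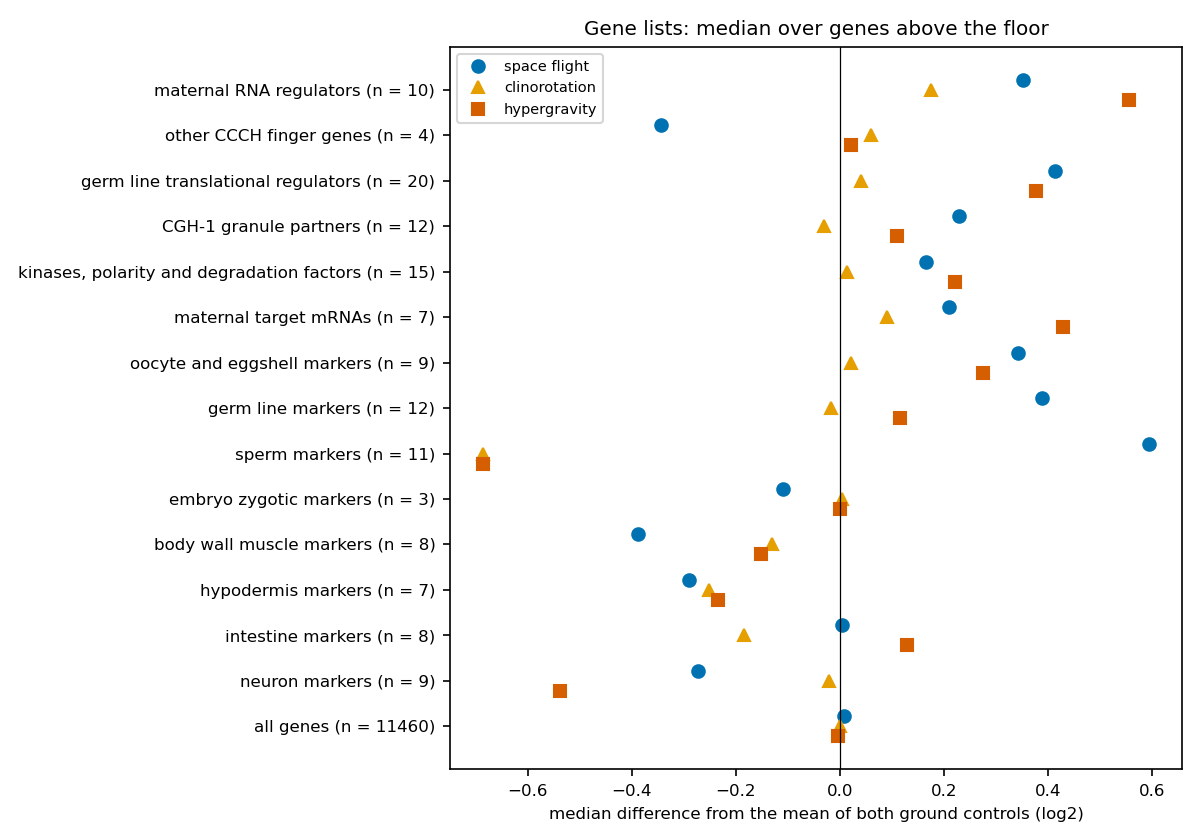
Median difference from the mean of both ground controls (log2, horizontal axis) over the genes above the floor in each list, 1 symbol per condition, with the number of genes beside each name. The maternal RNA regulators lie at 0.35 in space flight, 0.18 in clinorotation and 0.56 in hypergravity, and all genes at about 0. The sperm markers, at 0.59, -0.69 and -0.69 from the control mean, differ by 1.37 between the controls. Their clinorotation and hypergravity values are those of *spe-11*, at the floor on both arrays.

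The genes whose pattern over the 5 arrays was nearest to the median pattern of the 10 regulators were ranked by the root mean square distance of log2 signals, each centred on its own mean. The closest was *idhg-1*, a subunit gene of mitochondrial isocitrate dehydrogenase, at a distance of 0.022, with 1532 in space flight, 1321 in clinorotation and 1789 in hypergravity, against 1295 at the operation site and 1195 at Tsukuba. It was followed by *R10E11.6*, *T20F5.6*, *C34C12.8*, *plk-1* (0.038), *znf-207*, the nucleoporin gene *npp-11*, *F33E11.3*, *bath-41* and *zif-1* (0.042). Of the regulators themselves, *mex-3* (0.059) and *oma-2* (0.075) were nearest to their common median and *mex-1* (0.18) and *mex-6* (0.21) farthest, at ranks 52, 126, 1965 and 2775 among 11460 genes. The 10 regulators themselves set that median, so their ranks among all genes are not independent of it. With 5 arrays and many genes, distances this small are a description only.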

How the data were processed

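Whole-worm RNA was hybridised to 5 one-colour Affymetrix *C. elegans* arrays, and per the labels' protocols ISOGEN was used for extraction and 15 µg of total RNA for biotin labelling. The deposited values are intensities, 1 linear signal per probe set, without detection calls; no label names the summary software. Genes were named through the platform annotation: of 22548 probe sets 20810 had 1 symbol, 843 several and 895 none, and the highest-mean probe set stood for a gene. Arrays were quantile scaled, floored at the 40th percentile and taken to log2. All 5 arrays entered limma 3.58.1 in R 4.3.3 (lmFit, eBayes with an intensity trend, two-sided, Benjamini-Hochberg), with the controls as 1 group. A gene outside both controls was counted with no test. In simulated data, limma called 6% of probe sets changed 2-fold in space flight and 72% of those changed 4-fold, among 15115. Every simulated probe set had the same SD of 0.424 (log2), whereas the measured spread differed between probe sets. These shares therefore do not give the power of the fit to the measured data. All probe sets of the 10 genes are named, with up to 4 genes per list and condition and the 10 nearest patterns. Members and lists were chosen with earlier results of these data known. The number of arrays limits the precision. Alternatives were scaling, floor, probe set and control choices.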

Additional observations from a re-analysis of the deposited data

How the results depend on the processing

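Under the other scalings, floors and probe sets run, the counts of the 10 genes outside both controls stayed within 1.5 times of those reported: 8 to 10 in space flight, 6 to 10 in clinorotation and 9 to 10 in hypergravity, with none below both in space flight or hypergravity. With 1 control left out nearly every gene must lie above or below the other, so the count of 10 there says nothing about stability; in clinorotation 8 were above and 2 below either control. Without scaling the medians of the 10 genes were 0.95 (log2) in space flight, 0.50 in clinorotation and 1.03 in hypergravity, but the medians of all genes then stood at 0.57, 0.26 and 0.33, so that 0.38, 0.24 and 0.69 remained relative to them. Leaving out a control, the medians ran from 0.29 to 0.42 in space flight, 0.15 to 0.20 in clinorotation and 0.46 to 0.58 in hypergravity, the low end in each against the operation site alone. The median between the controls was 0.13, became 0.01 with the mean of all probe sets of a gene and -0.035 with the probe set of the lowest mean, an alternative chosen after seeing the data; the cause was not tested. Of 240 single differences, 5 changed sign, all in clinorotation: *oma-1*, *pos-1*, *mex-6*, *mex-5* and *mex-1*, each under 1 alternative. limma called none of the 18 probe sets under any of its alternatives. Over the whole table it called some in space flight without scaling, and some in each condition with all 22548 probe sets tested and floored. With the floor left out it called none of the same 22548. The part of the floor in those calls was not tested. With a control left out limma has no residual degree of freedom, so it gave no test there. No paired analysis was possible because the conditions have 1 array each. Without detection calls, signal over background could not be judged.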

Other observations

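For 7 of the 8 regulators with 2 probe sets, the operation-site and Tsukuba controls differed in opposite directions on the 2 probe sets, by as much as 0.37 against -0.48 (log2) for *mex-1* and -0.22 against 0.53 for *cgh-1*. Among the 2444 genes with at least 2 probe sets above the floor, 34.9% did so on their first 2. After scaling, the difference between hypergravity and space flight had the same sign on both probe sets of 8 of 8 regulators with a pair, where 33.5% of those 2444 genes had opposite signs. In the deposited values it had the same sign for 2 of 8, where 29.5% of those genes had opposite signs, so that agreement depends on the scaling, which was set against the deposited values after seeing the data. For *pos-1* the opposite signs between the controls rest on 0.01 and -0.03. Sequences and positions of the probe sets were not used here.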
